A study of Mus musculus with 3 samples.

Results

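Keratins were followed through lung mesenchymal stromal cells (LMSCs) of the tumor-bearing MMTV-PyMT mouse, a transgenic line that the study names on the FVB/N strain. The members were the 10 genes Krt8, Krt18, Krt7, Krt19, Krt14, Krt5, Krt17, Krt20, Krt23 and Krt80, taken by symbol from a table of 34742 genes, which holds 51 genes with a numbered Krt symbol in all. All 10 were found, and each reached 1 CPM (counts relative to the library total) in at least 1 library. RNA-seq was available from cultures of 3 tumor stages with 1 library each, namely adenoma (A-LMSC, 7 weeks of age), pre-metastatic (PM-LMSC, 11 weeks) and metastatic (M-LMSC, 13 weeks). All cultures came from animals carrying the PyMT transgene, an oncogene driven by the MMTV promoter in mammary epithelium, so no library came from a mouse without the transgene. They were adherent cells of digested lung, depleted of CD45+ leukocytes with beads and used at passage 3. Further libraries of these stages from the same study are not analysed here.

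Keratins are the intermediate filament proteins of epithelial cells. A filament is built from obligate heterodimers of a type I and a type II keratin, and it is anchored at desmosomes and hemidesmosomes by plakins and plakophilins. Simple epithelia such as the alveolar, ductal and luminal mammary lining mainly carry Krt8 with Krt18, often with Krt7 and Krt19, while basal cells of the airway, epidermis and mammary gland carry Krt5 with Krt14. Mesenchymal cells build their filaments from vimentin instead, although low keratin transcripts are known in many cultured cells, and mesothelial cells carry both kinds.

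Of the 10 genes, 5 lie on chromosome 15 and 5 on chromosome 11. The 4 type II genes, Krt8, Krt7, Krt5 and Krt80, are all on chromosome 15, together with Krt18, the type I partner of Krt8. The starts of Krt8 and Krt18 are 23874 bases apart and the genes are transcribed away from each other. The remaining type I genes, Krt19, Krt14, Krt17, Krt20 and Krt23, are on chromosome 11.

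Promoters, here 250 bases before and 50 bases after the RefSeq start on GRCm38.p6, were held for 7 of the 10 members. The 3 keratins with the highest counts in M-LMSC are shown with Krt23, which had the opposite pattern between PM-LMSC and M-LMSC. They are Krt8 (chr15:102004293-102004592, minus strand), Krt18 (chr15:102027966-102028265, plus strand), Krt7 (chr15:101412153-101412452, plus strand) and Krt23 (chr11:99493071-99493370, minus strand), with capitals marking matches to the TATA box TATAAA, the CCAAT box CCAAT, the GC box GGGCGG, the AP-1 motif TGANTCA or the AP-2 motif GCCNNNGGC on either strand.
Krt8: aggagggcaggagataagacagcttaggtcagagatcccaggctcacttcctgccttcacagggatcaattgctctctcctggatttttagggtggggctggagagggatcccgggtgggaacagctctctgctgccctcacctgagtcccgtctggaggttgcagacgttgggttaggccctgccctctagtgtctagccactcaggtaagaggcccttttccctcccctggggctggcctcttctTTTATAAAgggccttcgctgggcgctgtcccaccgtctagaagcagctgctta
Krt18: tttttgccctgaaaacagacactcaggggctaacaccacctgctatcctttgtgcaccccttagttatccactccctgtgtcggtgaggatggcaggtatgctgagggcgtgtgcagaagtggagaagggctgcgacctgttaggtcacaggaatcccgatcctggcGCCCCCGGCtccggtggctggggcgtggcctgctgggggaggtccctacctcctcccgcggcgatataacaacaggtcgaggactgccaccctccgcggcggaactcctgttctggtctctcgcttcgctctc
Krt7: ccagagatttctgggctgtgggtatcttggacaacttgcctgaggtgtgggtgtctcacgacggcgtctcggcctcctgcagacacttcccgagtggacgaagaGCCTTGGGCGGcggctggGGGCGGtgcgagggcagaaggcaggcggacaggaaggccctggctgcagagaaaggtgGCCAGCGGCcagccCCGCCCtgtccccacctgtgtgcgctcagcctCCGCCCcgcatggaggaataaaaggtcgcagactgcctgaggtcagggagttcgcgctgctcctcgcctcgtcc
Krt23: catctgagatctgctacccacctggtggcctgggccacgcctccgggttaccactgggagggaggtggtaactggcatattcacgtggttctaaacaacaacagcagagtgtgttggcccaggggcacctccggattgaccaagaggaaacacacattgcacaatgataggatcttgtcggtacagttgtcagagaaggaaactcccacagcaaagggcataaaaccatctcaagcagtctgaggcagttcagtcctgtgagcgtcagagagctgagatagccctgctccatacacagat
In Krt8, TATAAA matched on both strands at overlapping positions, -1 and -3, counted from the first base of a match with the start base as 0. Krt18 held an AP-2 match at -83. Krt7 held 4 GC boxes, at -141, -128, -56 and -24, and 2 AP-2 matches at -146 and -70, of which the match at -146 overlaps the GC box at -141. Krt23 held none of these motifs in this window. Over the 7 promoters, the TATA box was found in 2, the AP-2 motif in 2, the GC box in 1, and the CCAAT box and AP-1 motif in 0. Among 32851 promoters of the same length, these motifs were found in 13.6% (TATA box), 16.6% (AP-2), 35.7% (GC box), 37.4% (CCAAT box) and 7.8% (AP-1). AP-2 matches were thus shared by Krt18 and Krt7, no motif was found in all 3 of Krt8, Krt18 and Krt7, and the matches describe letters only. The RefSeq start is also the first base of the deposited gene for Krt8 and Krt18, whereas for Krt7 it lies 1360 bases inside that gene. For Krt14, also among the 7 promoters counted, it lies 1518 bases inside.

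The libraries held 13479898, 12594155 and 14338909 counts in A-, PM- and M-LMSC. A total of 3 counts corresponds to 0.272, 0.234 and 0.174 CPM in these libraries, scaled by TMM, and this was taken as the limit that a count of 0 allows. With 1 library per stage, replicate error could not be measured, no test was run, and all intervals given are 95% intervals that cover counting error only. In these bulk libraries, fewer cells of a type and less RNA per cell cannot be told apart. Stage, age and culture changed together between libraries and cannot be told apart either.

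The paired keratins of simple epithelia, Krt8 and Krt18, were abundant in M-LMSC and scarce in A-LMSC. Krt8, the type II partner, had 23, 260 and 5020 counts in A-, PM- and M-LMSC, or 2.08 (1.32 to 3.13), 20.3 (17.9 to 22.9) and 291 (283 to 299) CPM. Krt18, the type I partner, had 46, 201 and 4095 counts, or 4.17 (3.05 to 5.56), 15.7 (13.6 to 18.0) and 238 (230 to 245) CPM. For both genes the libraries stood in the order of the stages and no counting intervals overlapped. M-LMSC had 140-fold more Krt8 than A-LMSC (93.0 to 221) and 57.0-fold more Krt18 (42.6 to 78.0). The step between M-LMSC and PM-LMSC was alike for the partners, at 14.3-fold (12.7 to 16.3) for Krt8 and 15.1-fold (13.1 to 17.5) for Krt18. Between PM-LMSC and A-LMSC it was 9.74-fold (6.35 to 15.6) for Krt8 and 3.77-fold (2.72 to 5.31) for Krt18.

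Krt7, a type II keratin of glandular and ductal epithelia, followed them. It had 58, 223 and 6334 counts in A-, PM- and M-LMSC, or 5.26 (3.99 to 6.80), 17.4 (15.2 to 19.9) and 367 (358 to 377) CPM. Krt7 thus had the most counts of the 10 keratins in M-LMSC. Its level in M-LMSC was 69.9-fold that in A-LMSC (54.0 to 92.2) and 21.1-fold that in PM-LMSC (18.5 to 24.2), and its level in PM-LMSC was 3.31-fold that in A-LMSC (2.47 to 4.50).

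Krt19, a type I keratin of ductal epithelia and mesothelium, did not share this pattern. It had 326, 351 and 469 counts in A-, PM- and M-LMSC, or 29.5 (26.4 to 32.9), 27.4 (24.6 to 30.4) and 27.2 (24.8 to 29.8) CPM. The 3 intervals overlapped, and Krt19 was the keratin with the most counts in the A-LMSC and PM-LMSC libraries. The ratio of M-LMSC to A-LMSC was 0.921 (0.798 to 1.06) and that of M-LMSC to PM-LMSC 0.992 (0.862 to 1.14). This flat course depended on the scaling against A-LMSC. After a trend with GC content and transcript length across all protein-coding genes was removed, the log2 ratio of Krt19 was 1.47 for M-LMSC over A-LMSC and 1.35 for PM-LMSC over A-LMSC, but 0.07 for M-LMSC over PM-LMSC.

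**Figure D1:**
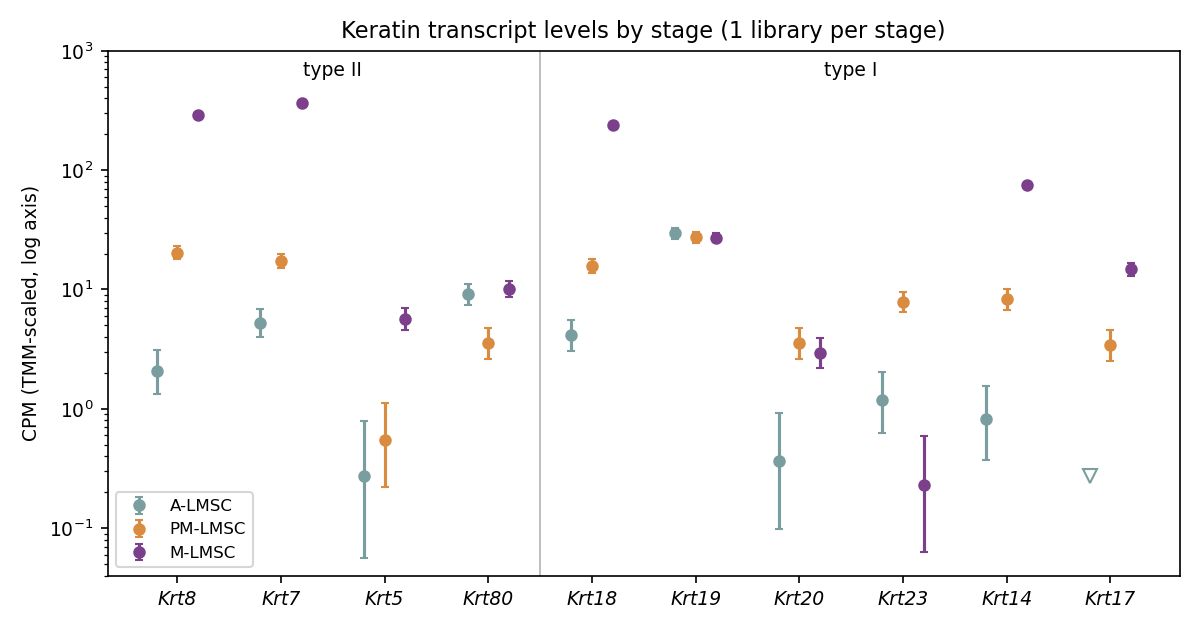
Level of each keratin in CPM (TMM-scaled, log axis) in A-, PM- and M-LMSC, 1 library each, with type II genes left and type I genes right. Bars are exact Poisson 95% intervals, hidden by the point where narrow, and the open triangle marks Krt17 in A-LMSC, at 0 counts, at the limit of 3 counts (0.272 CPM). Krt8, Krt7, Krt18 and Krt14 stood far higher in M-LMSC, Krt19 lay at 27.2 to 29.5 CPM in every library, and Krt23 was highest in PM-LMSC.

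The basal keratins Krt14 and Krt5 and the stress-induced keratin Krt17 were nearly undetected in A-LMSC. Krt14, the type I keratin of basal cells, had 9, 106 and 1298 counts in A-, PM- and M-LMSC, or 0.816 (0.373 to 1.55), 8.28 (6.78 to 10.0) and 75.3 (71.3 to 79.5) CPM. Its level in M-LMSC was 92.3-fold that in A-LMSC (48.5 to 202) and 9.09-fold that in PM-LMSC (7.46 to 11.2). In PM-LMSC it was 10.2-fold that in A-LMSC (5.15 to 22.8), a ratio whose interval held that of the later step.

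Krt5, the type II partner of Krt14, stayed far below it. Krt5 had 3, 7 and 98 counts, or 0.272 (0.0561 to 0.795), 0.547 (0.220 to 1.13) and 5.69 (4.62 to 6.93) CPM in A-, PM- and M-LMSC. Its ratio of M-LMSC to A-LMSC was 20.9 with a wide interval (6.95 to 103), and its ratio of M-LMSC to PM-LMSC was 10.4 (4.86 to 26.5). The intervals of PM-LMSC and A-LMSC overlapped, and Krt5 was under 1 CPM in both.

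Krt17, a type I keratin of hair follicles and of wounded or stressed epithelium, had 0, 44 and 254 counts, or 0, 3.44 (2.50 to 4.61) and 14.7 (13.0 to 16.7) CPM in A-, PM- and M-LMSC. Taking the 0 in A-LMSC at its limit of 3 counts, Krt17 in M-LMSC was at least 54.2-fold higher, and that in PM-LMSC at least 12.6-fold higher. The lower limits of the exact intervals on the counts were 43.8-fold and 9.85-fold. M-LMSC over PM-LMSC gave a ratio of 4.29 (3.10 to 6.05), smaller than the ratio of 9.09 for Krt14.

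Krt20, Krt23 and Krt80 each took another course. Krt20, a type I keratin of gut epithelium and urothelium, had 4, 46 and 51 counts, or 0.363 (0.0988 to 0.928), 3.59 (2.63 to 4.79) and 2.96 (2.20 to 3.89) CPM in A-, PM- and M-LMSC. The intervals of M-LMSC and PM-LMSC overlapped, with a ratio of 0.823 (0.542 to 1.25), and both lay above A-LMSC, with ratios of 8.16 (3.00 to 31.1) and 9.91 (3.62 to 37.9).

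Krt23, a type I keratin outside the classical partner pairs, peaked in PM-LMSC. It had 13, 101 and 4 counts, or 1.18 (0.627 to 2.01), 7.89 (6.43 to 9.59) and 0.232 (0.0632 to 0.594) CPM in A-, PM- and M-LMSC. The PM-LMSC interval overlapped neither of the others. Krt23 was 34.0-fold lower in M-LMSC than in PM-LMSC (12.9 to 127) and 6.70-fold higher in PM-LMSC than in A-LMSC (3.74 to 13.0). It was 5.08-fold lower in M-LMSC than in A-LMSC (1.57 to 21.4), a ratio that rests on 4 and 13 counts.

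Krt80, a type II keratin found near cell junctions, was lowest in PM-LMSC. It had 101, 46 and 175 counts, or 9.15 (7.46 to 11.1), 3.59 (2.63 to 4.79) and 10.2 (8.70 to 11.8) CPM in A-, PM- and M-LMSC. Levels in M-LMSC and A-LMSC overlapped, with a ratio of 1.11 (0.863 to 1.43). M-LMSC stood 2.83-fold above PM-LMSC (2.03 to 4.00), and PM-LMSC stood 2.55-fold below A-LMSC (1.78 to 3.69).

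To set the keratins beside all genes, ratios were taken as log2(CPM + 1), which shrinks those of low genes, and a gene was counted where it was at least 2-fold apart and its higher library reached 1 CPM. In M-LMSC against A-LMSC, 7 of 10 keratins were higher, against 41.0% of 13223 genes, and 0 were lower, against 27.7%. Krt8 (log2 ratio 6.57), Krt7 (5.88), Krt18 (5.53) and Krt14 (5.39) ranked 5, 9, 15 and 21 from the top of these genes. Krt17 (3.98), Krt5 (2.39) and Krt20 (1.54) were also counted as higher, while Krt80 (0.14), Krt19 (-0.11) and Krt23 (-0.82) were not counted. The median was 3.19 over the 10 keratins and 0.34 over all genes. Relative to the all-gene median, 7 keratins were counted as higher and 1, Krt23, as lower. With a pseudocount of 0.1 in place of 1, Krt23 was counted as lower.

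In M-LMSC against PM-LMSC, 7 of 10 keratins were higher, against 17.3% of 13181 genes. The highest log2 ratios were those of Krt7 (4.32), Krt18 (3.84), Krt8 (3.78) and Krt14 (3.04), at ranks 15, 29, 32 and 132. Krt5 (2.11), Krt17 (1.83) and Krt80 (1.28) were the other 3, and Krt19 (-0.01) and Krt20 (-0.21) were not counted. Krt23 (-2.85) was the 1 keratin counted as lower, against 7.85% of genes, at rank 13156 from the top. The medians were 1.97 for the keratins and 0.03 for all genes.

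In PM-LMSC against A-LMSC, 7 of the 9 keratins that reached 1 CPM were higher, against 35.0% of 12727 genes. Krt8 (2.79), Krt14 (2.35), Krt17 (2.15), Krt23 (2.03), Krt20 (1.75), Krt18 (1.69) and Krt7 (1.56) lay close together, with Krt8 at rank 1074 from the top. Krt8, which ranked 5 in M-LMSC against A-LMSC, thus stood further from the top here. Krt80 (-1.14) was counted as lower, against 25.0% of genes, and Krt19 (-0.10) was not counted. The medians were 1.75 for the keratins and 0.19 for all genes, and the counts relative to the all-gene median were also 7 and 1. Krt80 was no longer counted as lower after the trend with GC content and length was removed, with the deposited FPKM, with library totals alone or with a pseudocount of 5. The comparisons share libraries, so their counts are not independent of each other.

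**Figure D2:**
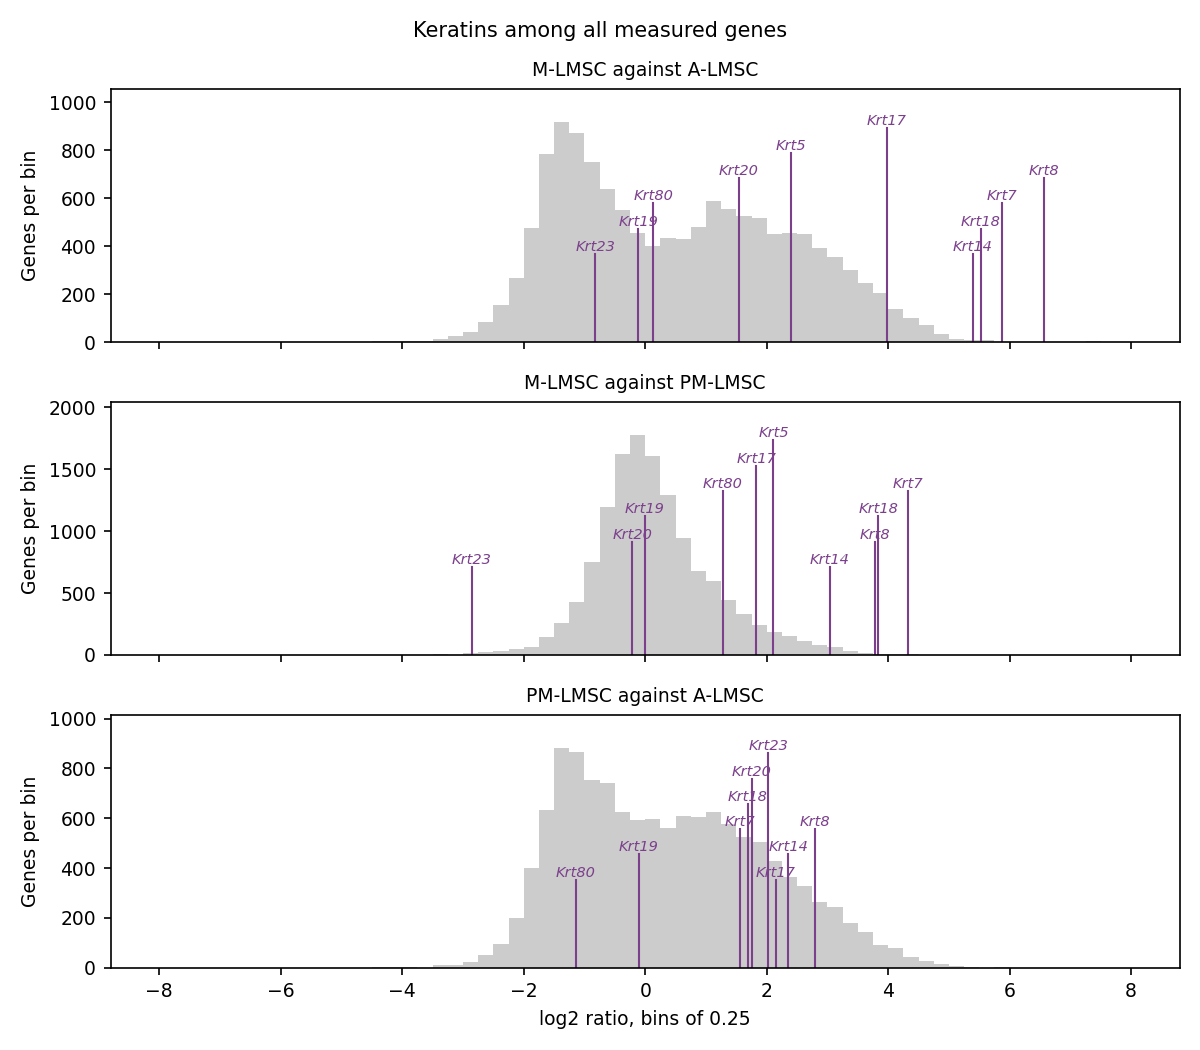
Distribution of log2 ratios, log2(CPM + 1), over all genes with at least 1 CPM in either library (grey, genes per bin of 0.25), with a vertical line at each keratin that reached 1 CPM. The height of a line has no meaning. Krt8, Krt7, Krt18 and Krt14 lay at the right end in M-LMSC against A-LMSC, whereas most keratins lay within the bulk of genes in PM-LMSC against A-LMSC.

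The keratins are GC-rich, with a median transcript GC content of 56.7% (49.5% to 58.9%) against 48.7% over protein-coding genes. Removing the trend with GC content and length raised the log2 ratio of M-LMSC to A-LMSC to 8.15 for Krt8, 6.99 for Krt18, 6.96 for Krt14 and 6.18 for Krt7. With this trend removed, 8 of 10 keratins were counted as higher for M-LMSC over A-LMSC, 7 of 10 for M-LMSC over PM-LMSC and 8 of 9 for PM-LMSC over A-LMSC. The all-gene shares on this scale were 18.9% higher and 18.8% lower for M-LMSC over A-LMSC, 10.9% and 8.91% for M-LMSC over PM-LMSC, and 18.9% and 17.1% for PM-LMSC over A-LMSC. The added member was Krt19 in both comparisons with A-LMSC.

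**Figure D3:**
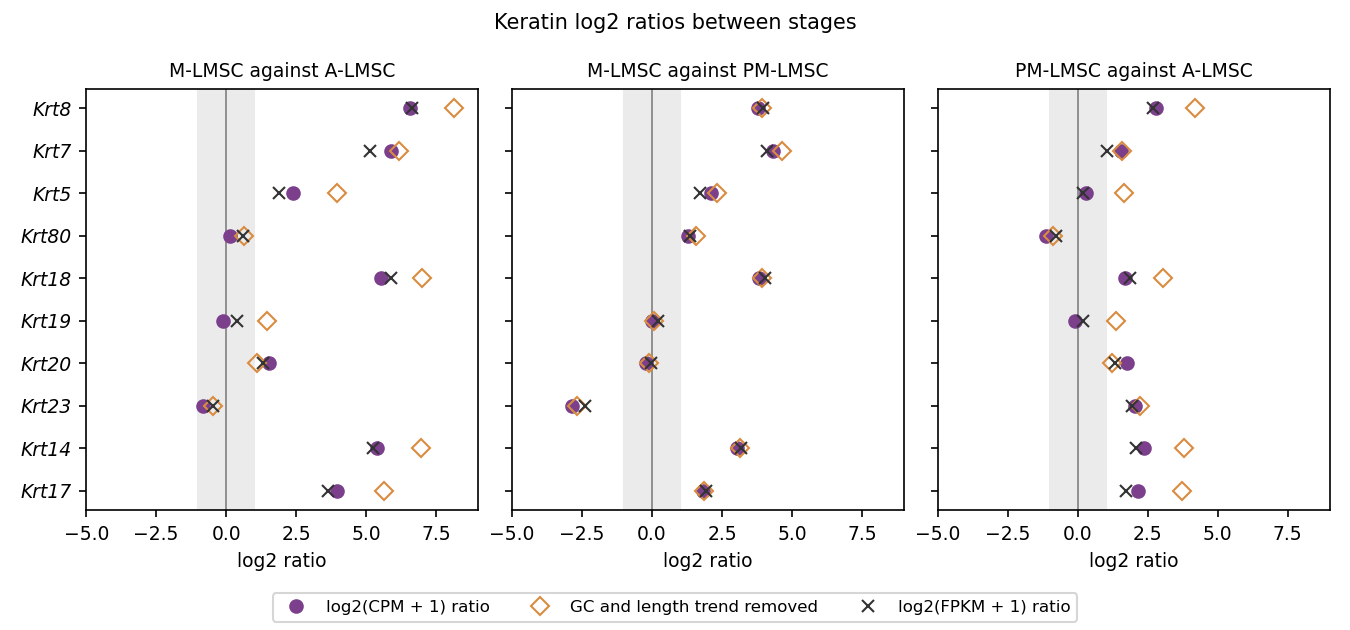
Log2 ratio of each keratin in the 3 comparisons, as log2(CPM + 1) (filled circles), after removal of the GC content and length trend (open diamonds) and from the deposited FPKM as log2(FPKM + 1) (crosses). The grey band marks ratios within 2-fold. The 3 scales lay close together for M-LMSC over PM-LMSC, and in the comparisons with A-LMSC the diamonds of most keratins lay to the right.

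Levels between keratins were compared per length, first by the deposited FPKM. In A-LMSC, Krt19 led with 10.4 FPKM, followed by Krt80 (4.22 FPKM) and Krt18 (2.44 FPKM). Each of these stood above the next by more than counting error, while the neighbors from Krt8 (0.945 FPKM) down to Krt5 (0.102 FPKM) did not differ beyond it. In PM-LMSC, Krt19 (11.9 FPKM), Krt8 (11.4 FPKM) and Krt18 (11.4 FPKM) could not be ordered on this scale. Krt23 (5.12 FPKM) and Krt14 (4.79 FPKM) came next and did not differ beyond counting error, nor did the neighbors from Krt17 (2.25 FPKM) through Krt7 and Krt80 to Krt20 (1.90 FPKM). In M-LMSC, Krt18 (204 FPKM) stood just above Krt8 (194 FPKM), with a ratio of 1.05 (1.01 to 1.10). Krt14 (51.5 FPKM) and Krt7 (51.4 FPKM) followed with a ratio of 1.00 (0.943 to 1.06), and Krt19 was next at 14.0 FPKM. Below it stood Krt17 (11.4 FPKM), Krt80 (6.88 FPKM), Krt5 (3.12 FPKM), Krt20 (1.85 FPKM) and Krt23 (0.178 FPKM), each apart from the next by more than counting error.

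The place of Krt7 depended on the length assumed. The FPKM of Krt7 imply a gene model of 8595 bases, although its longest coding transcript in GENCODE M21 has 4094 bases. With CPM per kb of that transcript, Krt7 stood at 89.8 in M-LMSC, above Krt14 at 44.3, and behind Krt18 at 165 and Krt8 at 149. For Krt80 the implied model was shorter than the GENCODE transcript, 1774 against 3919 bases, and Krt80 stood at 2.59 CPM per kb in M-LMSC, next to Krt5 at 2.59. In A-LMSC this scale put Krt18 (2.90 CPM per kb) before Krt80 (2.34 CPM per kb). In PM-LMSC it put Krt19 at 17.4 CPM per kb, above Krt18 at 10.9 and Krt8 at 10.4.

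The make-up of the keratin pool therefore differed between stages. Krt19 formed 52.5%, 22.4% and 2.60% of the summed FPKM of the 10 keratins in A-, PM- and M-LMSC. Krt8 formed 4.79%, 21.5% and 36.0%, and Krt18 formed 12.4%, 21.4% and 37.9%. Krt80 formed 21.4%, 3.87% and 1.28%. The pool was thus led by Krt8 and Krt18 in M-LMSC and by Krt19 in A-LMSC. Per CPM per kb, Krt19 formed 67.2%, 29.9% and 3.58% in the same order.

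The balance of partners was followed by ratios within a library. Krt8 over Krt18 was 0.388 in A-LMSC (0.224 to 0.653), 1.00 in PM-LMSC (0.831 to 1.21) and 0.951 in M-LMSC (0.912 to 0.991) on the FPKM scale, so transcripts of the partners were nearly even in the later stages. Krt5 over Krt14 was 0.268 in A-LMSC (0.0466 to 1.07), 0.0530 in PM-LMSC (0.0208 to 0.113) and 0.0606 in M-LMSC (0.0488 to 0.0745). The basal pair was thus lopsided where it was well measured, with Krt14 far in excess of Krt5. The 4 type II keratins together had 0.414, 0.423 and 0.903 of the FPKM of the 6 type I keratins in A-, PM- and M-LMSC, and 0.208, 0.373 and 1.02 per CPM per kb.

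**Figure D4:**
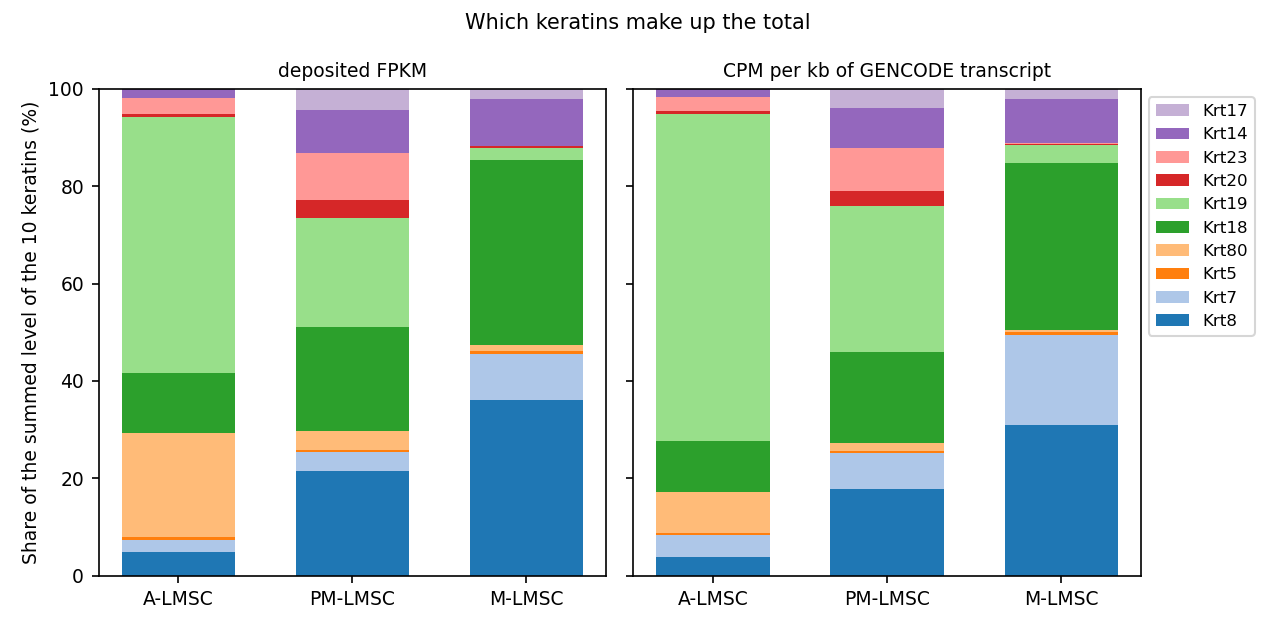
Share of each keratin in the summed level of the 10 keratins (%), stacked for A-, PM- and M-LMSC, from the deposited FPKM (left) and from CPM per kb of the longest GENCODE coding transcript (right). Krt19 took 2.60% of the FPKM in M-LMSC, against 52.5% in A-LMSC, and Krt8 and Krt18 took 36.0% and 37.9% in M-LMSC.

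Summed over the 10 genes, keratins took 583, 1385 and 17798 counts, which is 0.00432% (0.00398% to 0.00469%), 0.0110% (0.0104% to 0.0116%) and 0.124% (0.122% to 0.126%) of the library by exact binomial intervals. Vimentin (Vim), the intermediate filament protein of mesenchymal cells, had 128, 293 and 128 FPKM. The summed keratin FPKM were 19.7, 53.2 and 538, or 15.4%, 18.1% and 421% of Vim. The size of this share depended on the length assumed, since the FPKM of Vim imply a gene model of 7810 bases, while its GENCODE transcript has 2193. Per CPM per kb of that transcript, Vim stood at 556, 1027 and 379, and the keratin sum was 5.02%, 5.66% and 127% of it. On both scales keratin transcripts together exceeded Vim in M-LMSC and stayed below it in the other libraries.

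Among 41 further genes with a numbered Krt symbol, 28 had 0 counts in every library and 9 had at most 7 counts in any library. The 4 that reached 1 CPM were Krt6a, Krt16, Krt6b and Krt10. Krt6a, a type II keratin induced with Krt16 and Krt17 in wounded epidermis, had 2, 32 and 124 counts in A-, PM- and M-LMSC. Krt16 had 0, 12 and 45 counts and Krt6b had 0, 4 and 22, while Krt10, a keratin of differentiating epidermis, had 11, 17 and 11. The ratio of M-LMSC to PM-LMSC was 2.88 (1.94 to 4.39) for Krt6a and 2.79 (1.45 to 5.78) for Krt16. Krt6a, Krt6b and Krt16 thus stood in the same order of stages as Krt17 and Krt14.

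Part of these reads could belong to related genes. Of all stretches of 50 bases in the longest coding transcript, 29.7% in Krt8 also occur in another GENCODE gene, mostly its pseudogene Krt8-ps, which is not analysed here. The shares were 14.4% in Krt14, mostly with Krt16, 12.2% in Krt5, mostly with Krt6a, 3.99% in Krt17 and 3.88% in Krt80. They were at most 0.72% in Krt18, Krt7, Krt19, Krt20 and Krt23, and reached 62.0% in Krt6a, 50.1% in Krt6b and 37.6% in Krt16. Values of these last 3 genes are therefore uncertain. Of the 50-base stretches, 149 of Krt80 also occur in Gm35853 and 53 of Krt8 in Gm36026. Since strand is not stated for these libraries, reads from a gene on the strand opposite a keratin cannot be told apart either.

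Genes that anchor keratin filaments were examined as a list of 15, of which 14 were in the table. For M-LMSC over A-LMSC, 10 of 14 were at least 2-fold higher, against 41.0% of all genes, and 1 was lower, against 27.7%, with a median log2 ratio of 2.63. For M-LMSC over PM-LMSC the counts were again 10 and 1, against 17.3% and 7.85% of all genes, with a median of 1.77. For PM-LMSC over A-LMSC 6 of 11 were higher and 2 lower, against 35.0% and 25.0%, with a median of 1.27. Without the trend with GC content and length, the counts higher and lower were 9 and 1, 9 and 1, and 5 and 0 in the same order. All-gene shares without it were 18.9% and 18.8%, 10.9% and 8.91%, and 18.9% and 17.1%. Dsp, the desmosomal plakin that binds keratin, had 0, 22 and 772 counts in A-, PM- and M-LMSC. Pkp1, a plakophilin of desmosomes, had 0, 88 and 356 counts. The large cytolinkers Dst and Macf1 stood at 7.43, 59.4 and 217 CPM and at 6.71, 43.3 and 182 CPM. Without the trend, their log2 ratios for M-LMSC over A-LMSC went from 4.69 and 4.57 to 2.67 and 1.57. For PM-LMSC over A-LMSC they went from 2.84 and 2.52 to 1.16 and 0.16. In contrast to the higher genes, Plec, a plakin that links vimentin as well as keratin filaments, stood at 1330, 1008 and 399 CPM. It was the member counted as lower in M-LMSC.

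Other intermediate filament genes were mixed. Of 16 listed, 9 were measured in M-LMSC against A-LMSC, of which 3 were higher and 4 lower (median log2 ratio -0.64), against 41.0% and 27.7% of all genes. Over PM-LMSC, M-LMSC had 1 of 10 higher and 4 lower (median -0.83), against 17.3% and 7.85%. In PM-LMSC against A-LMSC 3 of 9 were higher and 2 lower, against 35.0% and 25.0%. These counts became 6 and 0 without the GC content and length trend, against 18.9% and 17.1% of all genes. Des, the muscle filament protein desmin, stood at 1021, 1181 and 192 CPM in A-, PM- and M-LMSC, and the nuclear lamins Lmna and Lmnb2 at 1702, 840 and 447 CPM and at 123, 32.7 and 19.8 CPM. Nes, the nestin filament gene used by the study to mark LMSCs, stood at 60.0, 966 and 362 CPM. Vim had 1218, 2253 and 831 CPM, and its log2 ratio was -0.55 for M-LMSC over A-LMSC (-2.12 without the GC content and length trend) and -1.44 for M-LMSC over PM-LMSC.

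By distance between centered log2(CPM + 1) values over the 3 libraries, among 9567 protein-coding genes that reached 10 CPM, the genes most like Krt18 were Pglyrp1 (distance 0.05), Dsp (0.20) and Epcam (0.21). Those most like Krt7 were Dsp (0.26), Krt18 (0.35) and Pglyrp1 (0.39), and those most like Krt8 were Wnt7b (0.66), Epcam (0.75) and Cdh1 (0.77). Pglyrp1 encodes a secreted peptidoglycan-binding protein, Wnt7b a Wnt ligand and Epcam and Cdh1 epithelial adhesion proteins. The likeness is described over 3 libraries only.

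As a sum, general epithelial markers were highest in M-LMSC, as were the keratins. The summed level of 16 general epithelial genes was 39.9, 41.5 and 466 CPM in A-, PM- and M-LMSC, with 13 of 15 measured genes higher and 0 lower in M-LMSC against A-LMSC and 14 of 15 higher against PM-LMSC. All-gene shares higher were 41.0% and 17.3%. In PM-LMSC against A-LMSC, 2 of 9 were higher and 0 lower, against 35.0% and 25.0% of all genes. Without the trend with GC content and length, the counts were 6 and 2, against 18.9% and 17.1% of all genes. Epcam had 1, 42 and 879 counts, Cdh1, the epithelial cadherin, 5, 72 and 1095, Cldn4, a tight-junction claudin, 18, 54 and 2119, and Ehf, an epithelial Ets factor, 0, 6 and 221. Their part in the keratin result was not tested. The general epithelial sum differed little between PM-LMSC and A-LMSC, although Epcam and Cdh1 were already higher in PM-LMSC.

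Mammary and lung epithelial markers differed from each other in the comparisons with A-LMSC. The 15 mammary luminal genes summed to 16.3, 53.2 and 390 CPM, with 10, 7 and 3 of them at 0 counts. In M-LMSC that sum was mostly Ltf and Cd24a, and 8 of the 15 genes reached 1 CPM. Of 9 measured genes, 8 were higher in M-LMSC against A-LMSC, or 6 without the trend, where all-gene shares were 41.0% and 18.9%. Ltf, the secreted iron-binding protein lactoferrin, had 0, 209 and 3022 counts, the caseins Csn1s1 and Csn3 had 0, 2 and 430 and 0, 0 and 253, and Csn2, Wap and Lalba were at 0 in every library. The 12 lung epithelial genes summed to 128, 11.5 and 37.4 CPM, with 2 of 9 higher and 4 lower in M-LMSC against A-LMSC, against 41.0% and 27.7% of all genes. In PM-LMSC against A-LMSC, 0 of 8 lung genes were higher and 6 lower, or 2 and 6 without the trend. Of 5 mammary luminal genes measured there, 3 were higher and 1 lower, or 1 and 0 without the trend. All-gene shares there were 35.0% and 25.0%, or 18.9% and 17.1% without the trend. Sftpc, the surfactant protein of alveolar type II cells, had 969, 0 and 29 counts, Sftpb, another surfactant protein, 202, 0 and 13, and Napsa, a protease that processes surfactant protein, 57, 4 and 4. Other members were highest in M-LMSC, with 1, 3 and 95 counts for Foxj1, the factor of ciliated cells, and 65, 117 and 422 for Aqp5, the water channel of alveolar type I cells. The list thus held genes highest in A-LMSC and genes highest in M-LMSC. In M-LMSC against PM-LMSC, 4 of 4 measured lung genes were higher, as were 6 of 8 mammary luminal genes. In each list 0 were lower, and all-gene shares were 17.3% and 7.85%. Whether tumor or lung epithelial cells carried the keratin transcripts was not tested.

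Basal and myoepithelial genes were mixed, with a sum of 5401, 6723 and 6094 CPM that was mostly Acta2, the smooth muscle actin also made by stromal cells. Of 8 measured, 5 were higher and 2 lower in M-LMSC against A-LMSC, and 2 were higher and 1 lower against PM-LMSC. All-gene shares were 41.0% and 27.7%, and 17.3% and 7.85%. The integrin subunit Itga6 had 1, 364 and 576 counts, Itgb4, its integrin partner in hemidesmosomes, 87, 99 and 903, and Myh11, a smooth muscle myosin, 101, 3583 and 4173. Trp63, the transcription factor that defines basal cells, had 0, 1 and 10 counts and did not reach 1 CPM, while Krt14 had 1298 counts in M-LMSC.

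Mesothelial genes summed to 35.9, 92.2 and 118 CPM, with 3 of 7 higher and 3 lower in M-LMSC against A-LMSC, or 2 and 1 without the trend with GC content and length. All-gene shares were 41.0% and 27.7%, or 18.9% and 18.8% without it. Msln, mesothelin, had 50, 134 and 1284 counts and Bnc1 4, 111 and 286, but the defining factor Wt1 had 71, 294 and 73, Upk3b had 106, 57 and 56, Calb2 37, 2 and 1, and Muc16 was at 0 throughout. Wt1 was thus highest in PM-LMSC, the library with the most Krt23. The 5 endothelial genes summed to 1.63, 15.3 and 5.63 CPM and the 6 leukocyte genes to 10.3, 18.1 and 14.9 CPM, with Ptprc, which encodes CD45, at 0, 3 and 9 counts. The leukocyte sum was mostly Cd68. Of 2 measured leukocyte genes, 1, Itgam, was higher in M-LMSC and in PM-LMSC against A-LMSC, and 0 were lower. All-gene shares higher were 41.0% and 35.0%.

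Mesenchymal markers were present in every library. The 10 listed genes summed to 37043, 22651 and 6988 CPM, none was at 0, and 3 were higher and 5 lower in M-LMSC against A-LMSC, or 0 and 4 without the GC content and length trend. All genes had 41.0% higher and 27.7% lower, or 18.9% and 18.8% without that trend. The collagen genes Col1a1 and Col3a1 stood at 16401, 7267 and 1815 CPM and at 3262, 1536 and 332 CPM, while Pdgfra, a receptor that marks fibroblasts, stood at 30.8, 230 and 137 CPM. The summed mesenchymal level was mostly Col1a1, Col1a2 and Col3a1. This sum ran opposite to the keratins, and it still exceeded the summed keratin level of 1033 CPM in M-LMSC. The 3 genes higher in M-LMSC than in A-LMSC were Pdgfra, Dcn (45.5, 25.1 and 187 CPM) and Postn (1.18, 2.81 and 7.43 CPM).

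**Figure D5:**
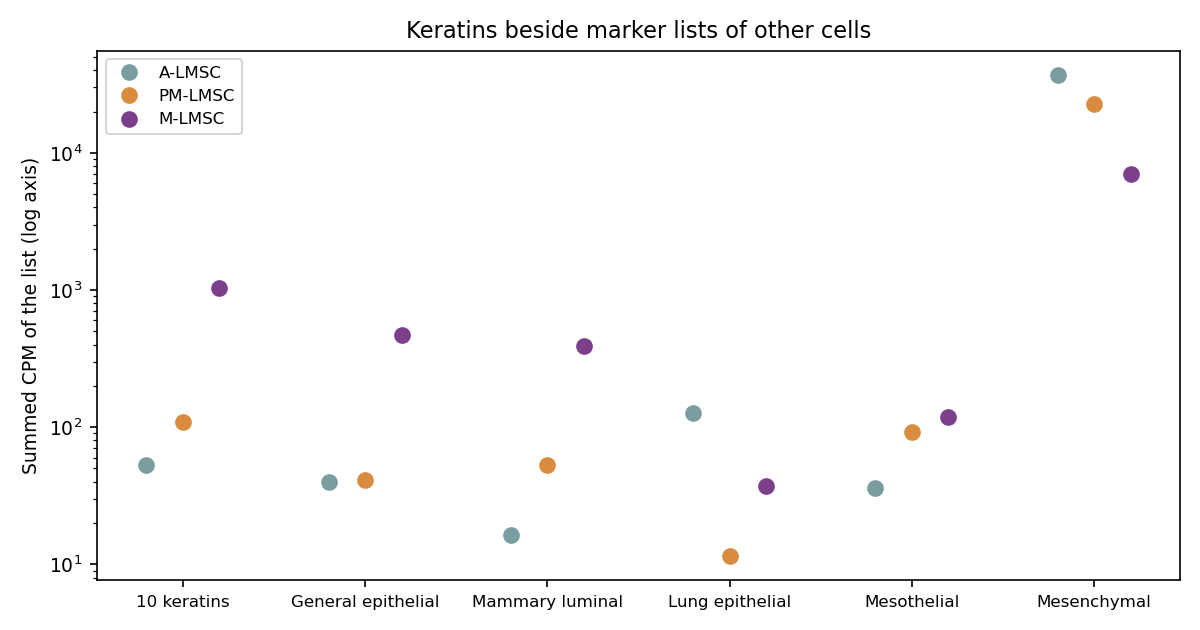
Summed CPM (log axis) of the 10 keratins and of 5 marker lists in A-, PM- and M-LMSC, 1 library each. The sums of the keratins (52.8, 108 and 1033 CPM), general epithelial and mammary luminal genes were highest in M-LMSC, whereas those of lung epithelial and mesenchymal genes were highest in A-LMSC.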

How the data were processed

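The 3 RNA-seq libraries analysed here came from cultures of mouse LMSCs, 1 per stage, and groups were taken from the sample labels. Other libraries of the study were not used here. Per the submitters' processing notes, reads were aligned with TopHat2 2.0.9 to mm10. For the counting program, the annotation and strandedness, the answer is not given in the sources used here. For each gene, raw counts were deposited as whole numbers, beside FPKM values that the authors computed per gene length and library total. Of 34748 lines, 6 incomplete ones were left out.

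Counts were scaled to CPM with TMM factors (edgeR 4.0.16, R 4.3.3), which were 0.818, 1.02 and 1.20 in A-, PM- and M-LMSC. Intervals of levels were exact Poisson, and those of ratios exact binomial on the counts with no pseudocount. For a lower bound, 0 was replaced by 3 counts. The alternatives were pseudocounts of 0.1 and 5, library totals, the deposited FPKM, upper-quartile scaling, median-of-ratios factors (DESeq2 1.42.0), no minimum or 5 CPM, and a lowess trend (span 0.3) with GC content and length removed. That trend also shifts genes near 0 counts.

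The text names all 10 keratins, other Krt genes that reached 1 CPM, the members of each list with the largest change between M-LMSC and A-LMSC (up to 4), a few defining markers and the 3 genes most like Krt8, Krt18 and Krt7. Csn2, Wap, Lalba, Muc16, Acta2, Wt1, Aqp5, Dcn, Postn and Ptprc lie outside this rule and were named after their values were seen. Values of 1 list member are not reported here. The members and lists were chosen with earlier results of these data known. The steps were tested on simulated data. Python 3.11.15 was used with pandas 2.3.3, scipy 1.17.1 and statsmodels 0.14.6.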

Additional observations from a re-analysis of the deposited data

How the results depend on the processing

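The counts of keratins at least 2-fold higher kept within 1.5 times their value of 7 under every alternative run, in all 3 comparisons. With a pseudocount of 5 they fell to 6 in M-LMSC against A-LMSC and to 5 in the other comparisons. With a minimum of 5 CPM they fell to 6 in M-LMSC against A-LMSC and to 5 in PM-LMSC against A-LMSC. The count of keratins at least 2-fold lower in M-LMSC against A-LMSC, which was 0, became 1 with a pseudocount of 0.1, through Krt23. The count lower in PM-LMSC against A-LMSC, which was 1 (Krt80), became 0 after removal of the trend with GC content and length, with the deposited FPKM, with library totals alone and with a pseudocount of 5. Of 210 log2 ratios of single keratins under alternatives, 199 kept their sign, and the 11 that did not belonged to Krt19 (in all 3 comparisons) and to Krt80 (M-LMSC against A-LMSC, -0.04 with median-of-ratios factors and -0.08 with upper-quartile scaling). The log2 ratio of Krt19 in M-LMSC against A-LMSC, -0.11, became 0.40 with FPKM, 0.42 with library totals and 1.47 with the trend removed. The cause was not tested. No library could be left out, since each stage had 1. No paired analysis was possible because each stage had a single library. Over all genes, the split of higher and lower calls also moved. In M-LMSC against A-LMSC it was 5418 and 3666, but 4546 and 1347 with FPKM and 2487 and 2476 without the trend. For M-LMSC over PM-LMSC it was 2285 and 1035, but 1581 and 407 with FPKM and 1429 and 1172 without the trend. For PM-LMSC over A-LMSC it was 4456 and 3183, but 3270 and 1626 with FPKM and 2404 and 2169 without the trend. Depth limits Krt5, Krt14, Krt20, Krt23 and Krt17 most, which had at most 13 counts in A-LMSC.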
